A study of Mus musculus with 6 samples.

Results

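The secreted WNT proteins, their Frizzled and LRP receptors, the secreted proteins that bind or block them, and the pathway's own target genes Axin2 and Lef1 were examined in alveolar type II epithelial cells after deletion of Stat3. The genes were chosen by symbol: every gene of the Wnt, Fzd, Sfrp, Dkk and Rspo families together with Wif1, Lrp5, Lrp6, Axin2 and Lef1, where a probe set named that gene alone. This gave 47 genes, measured by 89 of 45037 probe sets; 18193 genes were measured in all. By family they were 19 Wnt ligands, 11 Fzd genes, 4 Sfrp, 4 Dkk and 4 Rspo genes and the 5 genes named singly. Of the Fzd symbols, Fzd10os names a transcript from the strand opposite Fzd10 and not a receptor.

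Cells came from 8 week old Stat3Δ/Δ mice, which carry SP-C-rtTA, (tetO)7CMV-Cre and Stat3flx/flx, and from littermate controls. The sample titles call the controls wild-type. The source names give the controls both transgenes and name no floxed alleles, while their descriptions give the triple-transgenic genotype instead. The study's methods describe littermates with Stat3flx/flx and either transgene. Dams of both groups ate doxycycline food between embryonic day 0 and postnatal day 25, so that rtTA, driven by the SP-C promoter, turns on the (tetO)7CMV-Cre transgene. The study's methods place the resulting loss of exon 21 of Stat3 in respiratory epithelial cells, without a limit to type II cells. Cells were isolated with collagenase and differential plating, each pool held the cells of 3 mice, and 3 Stat3Δ/Δ pools and 3 control pools were each hybridized to 1 MOE430 array. By the study's methods, type II cells made up most of each isolate and alveolar macrophages were the main other cell. Those methods report no difference between the groups in purity, judged with a Papanicolaou stain, or in the number of type II cells.

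WNT proteins are lipid-modified ligands that bind a Frizzled receptor together with LRP5 or LRP6, which halts the breakdown of beta-catenin and lets it switch on genes through TCF and LEF factors. Secreted Frizzled-related proteins and WIF1 bind the ligands outside the cell, and several Dickkopf proteins bind the LRP co-receptors. R-spondins amplify the signal by keeping Frizzled receptors at the cell surface. In the lung the pathway is known for its part in branching of the airways, in the growth of mesenchyme and in the renewal of type II cells, and AXIN2, which restrains the pathway, is widely used as a readout of its activity.

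Values are linear Affymetrix signals, and array medians ran from 282.8 to 381.2. Of the 4 probe sets of Stat3 itself, the brightest read 26284.7, 20127.5 and 25650.1 in Stat3Δ/Δ pools 1 to 3 and 49488.8, 41544.1 and 35080.1 in control pools 1 to 3, a log2 fold change of -0.71 (limma adjusted p = 0.532 among probe sets). Another gave -0.80, and in both every Stat3Δ/Δ array lay below every control array. The remaining pair gave -0.05 and 0.60, with overlapping groups. The position of the probe sets with regard to exon 21 was not analysed here. The paper cites earlier work in which type II cells of Stat3Δ/Δ mice had strongly lowered Stat3 mRNA and protein. Stat3Δ/Δ pools 1 and 2 and control pool 3 bear the same number at the front of their titles (called title number here), a number whose meaning no source used here states. Control pools 1 and 2 share another number, which no Stat3Δ/Δ pool bears, and Stat3Δ/Δ pool 3 bears a number of its own. Title number and group are thus largely confounded. Values between arrays of the same title number rest on control pool 3 as the only control. For Actb, signal at the 3' end over signal at the 5' end, which grows as RNA degrades, was 0.34 to 0.42 on the log2 scale in Stat3Δ/Δ cells and 0.47 to 0.81 in control cells. The part of RNA quality in the results was not tested.

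In limma, 0 genes of the set were called, higher or lower, by the study's joint thresholds (p 0.05, FDR 10%, fold 1.5). Across all 18193 genes, 2 were called higher (0.011%) and 0 lower (0.0%). Without the FDR, 6 genes of the set were lower in Stat3Δ/Δ cells, where 5.54% of all genes were, and 1 was higher, where 2.15% were. The 6 were the secreted inhibitor Wif1, the receptors Fzd2, Fzd7 and Fzd8, the ligand Wnt4 and the inhibitor Dkk2, and the 1 was the receptor Fzd5. At an unadjusted p of at most 0.05 there were 7 genes of the set, also with the methods' t-test, against 7.81% of all genes. With no normalization between arrays the split was 2 higher and 4 lower, and with arrays centred on their medians 0 higher and 7 lower. Over all genes it moved likewise, to 504 higher and 783 lower and to 286 higher and 1239 lower, from 391 and 1008. The study applied its thresholds to RMA values, which were not used here, and waived the FDR for mRNAs that changed in several probe sets. It reported more mRNAs increased than decreased after the deletion. Here the split over all genes went the other way, with 391 higher and 1008 lower without the FDR. The cause of this difference was not tested. The study listed Wif1 among its lower genes and named Wnt signaling among its enriched pathways. Fold changes below are Stat3Δ/Δ minus control on the scale of log2(signal + 69.9) after quantile normalization, where a change at low signal appears smaller than it is, and each gene stands by its probe set of highest mean.

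**Figure D1:**
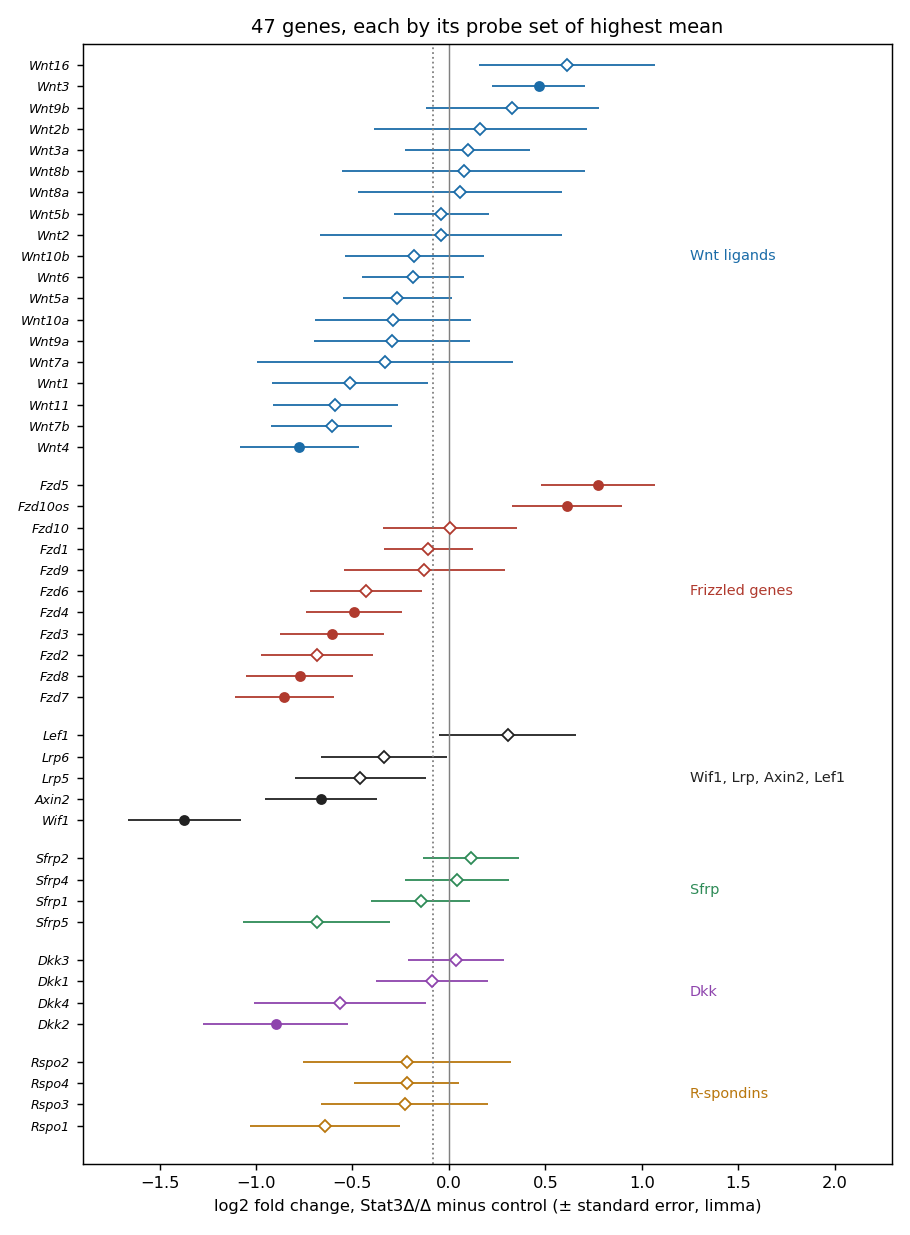
Log2 fold change (Stat3Δ/Δ minus control) of the 47 genes, grouped by family, with bars for the standard error from limma. Filled circles are genes whose 3 Stat3Δ/Δ and 3 control arrays do not overlap after normalization, open diamonds those that do, and the dotted line is the median of all genes at -0.085; Wif1 lies farthest to the left at -1.37 and Fzd5 farthest to the right at 0.77.

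Wif1, WNT inhibitory factor 1, binds WNT ligands in the extracellular space. Its signal was 269.9, 496.0 and 349.0 in Stat3Δ/Δ pools 1 to 3 and 822.8, 1152.2 and 962.8 in control pools 1 to 3. Every Stat3Δ/Δ array thus lay below every control array, with a wide gap between the groups. Its log2 fold change was -1.37 (standard error, SE, 0.29, unadjusted p = 0.00141, limma adjusted p = 0.447). By p it stood at rank 47 among all genes, and 82 genes had a lower log2 fold change. With 1 array left out in turn its log2 fold change ran from -1.57 to -1.17, and between arrays of the same title number it was -1.27. A lone probe set measured Wif1, so no second probe set can be set beside it.

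Of the 11 Fzd genes, 8 had a log2 fold change below 0, all of them receptors, with a median of -0.43 over the 11, against 59.3% of all genes and a median of -0.085. The 3 above 0 were Fzd5, Fzd10 and the opposite-strand Fzd10os. Fzd7, a receptor found on many progenitor cells, read 3114.9, 3646.6 and 3403.1 in Stat3Δ/Δ pools 1 to 3 and 5560.4, 5465.6 and 7544.4 in control pools 1 to 3. The Stat3Δ/Δ arrays were close together and all lay below the controls. Fzd7 gave a log2 fold change of -0.85 (SE 0.26, limma adjusted p = 0.532). Fzd8 read 1224.7, 1484.1 and 1183.0 in Stat3Δ/Δ cells and 1630.5, 2163.3 and 2957.8 in control cells, again with no overlap. This gave -0.77 (SE 0.28, limma adjusted p = 0.573). Both receptors were farther apart among the arrays that share a title number, at -1.19 for Fzd7 and -1.13 for Fzd8, and control pool 3 was the highest array for both. Their dimmer probe sets were closer to 0, at -0.09 (SE 0.43) for Fzd7 and -0.27 (SE 0.32) for Fzd8, and the mean of both probe sets was -0.47 for Fzd7 and -0.52 for Fzd8.

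Fzd2, a receptor for WNT5A among other ligands, read 824.2, 855.7 and 1169.5 in Stat3Δ/Δ pools 1 to 3 and 1484.9, 1165.4 and 1893.4 in control pools 1 to 3. Stat3Δ/Δ pool 3 reached the level of control pool 2, so the groups overlapped. The log2 fold change of Fzd2 was -0.68 (SE 0.29, limma adjusted p = 0.633), and -1.15 between arrays of the same title number, where control pool 3 was the highest. Its other probe sets gave -0.79, without overlap, and -0.75, with overlap. Fzd3, a receptor known from axon guidance and planar cell polarity, read 576.8, 525.9 and 326.4 against 660.4, 581.5 and 809.8, and its groups did not overlap by a narrow margin. Fzd3 gave -0.61 (SE 0.27, limma adjusted p = 0.655), with its 6 probe sets running from -0.69 to 0.56. Fzd4, the receptor for norrin in vessels as well as for WNT ligands, read 1343.4, 1624.0 and 1221.0 against 1663.4, 2289.4 and 1897.8. The groups did not overlap, although Stat3Δ/Δ pool 2 and control pool 1 nearly met. Fzd4 gave -0.49 (SE 0.25, limma adjusted p = 0.706), its other probe sets gave -0.08 and 0.86, and the mean of its 3 probe sets turned to 0.10.

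Fzd5, a receptor with a known role in beta-catenin signaling of epithelia, differed from these receptors in direction. It read 10889.0, 8262.5 and 6074.7 in Stat3Δ/Δ pools 1 to 3 and 5047.7, 4289.4 and 5286.6 in control pools 1 to 3. All Stat3Δ/Δ arrays lay above all controls, and pool 3 came nearest to them. Its log2 fold change was 0.77 (SE 0.30, limma adjusted p = 0.591), or 0.87 between arrays of the same title number, and its dimmer probe set gave 0.32 with an SE of 0.65. The remaining receptor genes Fzd1, Fzd6, Fzd9 and Fzd10 overlapped between the groups, with log2 fold changes from -0.43 for Fzd6 to 0.0071 for Fzd10. A dimmer probe set of Fzd1 lay higher without overlap, at 526.2 to 533.8 against 277.6 to 412.3, and gave 0.42 (SE 0.24). The opposite-strand transcript Fzd10os read 445.3, 208.7 and 370.7 in Stat3Δ/Δ cells and 157.0, 178.9 and 169.7 in control cells, which did not overlap. It gave 0.61 (SE 0.28, limma adjusted p = 0.673), and its other probe set 0.81.

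**Figure D2:**
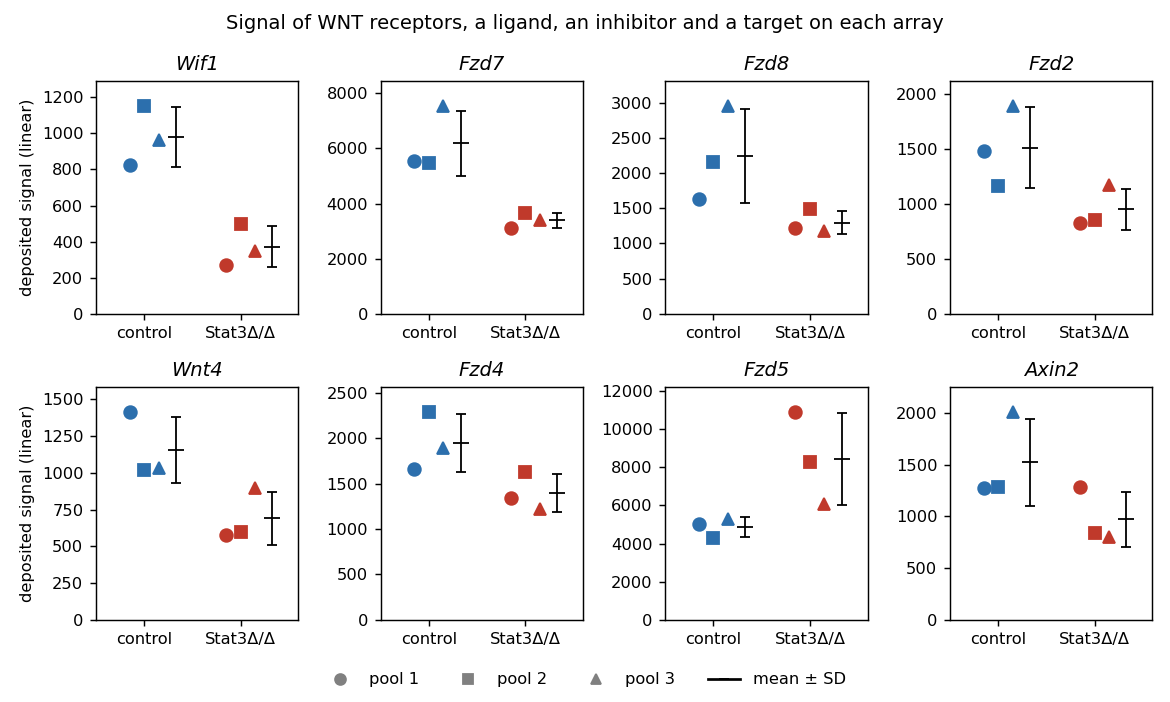
Deposited linear signal (y axis, from 0, with its own scale in each panel) of 8 genes on each array, with control pools in blue and Stat3Δ/Δ pools in red and the mean ± SD of 3 pools in black. The groups stand apart for Wif1, Fzd7, Fzd8, Wnt4 and Fzd4 (Stat3Δ/Δ lower) and for Fzd5 (Stat3Δ/Δ higher), and they touch for Fzd2 and Axin2.

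The upstream sequences of Wif1, Fzd7 and Wnt4, chosen from the genes that lay lower, and of Fzd5, which lay higher, are shown to compare what stands before their starts. They are the 250 bases before the RefSeq start site in build GRCm38.p6, 5′ to 3′ on the strand of the gene, for Wif1 at chr10:121033754-121034003 (plus strand), Fzd7 at chr1:59481897-59482146 (plus strand), Wnt4 at chr4:137277385-137277634 (plus strand) and Fzd5 at chr1:64737751-64738000 (minus strand). Capitals mark letters of a TCF/LEF motif.
Wif1: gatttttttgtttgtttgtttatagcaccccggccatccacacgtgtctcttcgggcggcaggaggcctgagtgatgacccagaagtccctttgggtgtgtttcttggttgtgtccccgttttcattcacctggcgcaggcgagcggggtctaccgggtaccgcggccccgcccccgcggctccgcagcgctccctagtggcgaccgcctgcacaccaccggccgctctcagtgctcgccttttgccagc
Fzd7: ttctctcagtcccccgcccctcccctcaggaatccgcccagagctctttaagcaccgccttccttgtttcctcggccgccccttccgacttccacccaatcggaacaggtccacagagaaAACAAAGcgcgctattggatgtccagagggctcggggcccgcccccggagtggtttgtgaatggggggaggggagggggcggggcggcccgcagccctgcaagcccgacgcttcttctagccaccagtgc
Wnt4: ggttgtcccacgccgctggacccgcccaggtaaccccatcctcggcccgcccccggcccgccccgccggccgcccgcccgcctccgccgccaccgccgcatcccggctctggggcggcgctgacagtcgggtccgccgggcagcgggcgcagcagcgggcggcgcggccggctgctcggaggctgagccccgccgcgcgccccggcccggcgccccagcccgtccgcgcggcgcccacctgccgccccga
Fzd5: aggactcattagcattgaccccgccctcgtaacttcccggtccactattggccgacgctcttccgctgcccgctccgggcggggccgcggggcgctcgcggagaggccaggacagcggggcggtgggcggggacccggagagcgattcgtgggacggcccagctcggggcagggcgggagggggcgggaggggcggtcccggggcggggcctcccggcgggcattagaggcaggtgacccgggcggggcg
The letters searched on both strands were TTCNNNGAA for STAT factors and for TCF/LEF factors any of CTTTGAA and its variants CTTTGAT as well as CTTTGTA or else CTTTGTT, over 250 bases before to 50 bases after each start. Promoters were at hand for 30 of the 47 genes, 36 promoters in all. A STAT motif stood in 1 of these 36 (2.78%), a promoter of Wnt5b, against 8.3% of 32851 promoters of all genes. A TCF/LEF motif stood in 6 of the 36 (16.7%), against 16.9% of all, in promoters of Fzd7, Lef1, Wnt5b, Wnt11, Wnt3 and Dkk1. The match of Fzd7 reads AACAAAG on the strand of the gene and begins 130 bases before the start. The windows of Wif1, Wnt4 and Fzd5 held no match to either motif. Nor did those of Axin2, Dkk2 and Fzd4, which also lay lower and are not shown. For Fzd2, Fzd3 and Fzd8 no promoter was at hand. The 250 bases before the start had a median GC content of 66.8% over the 36 promoters, against 52.4% over all promoters, and it was 62.8% for Wif1, 65.2% for Fzd7, 85.2% for Wnt4 and 76.4% for Fzd5. These counts describe letters and were not tested.

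Of the 19 Wnt ligands, 12 had a log2 fold change below 0, with a median of -0.18. Wnt4, a ligand of kidney and gonad development that is also made in lung, was the 1 ligand past p and fold without the FDR. It read 574.7, 593.9 and 899.6 in Stat3Δ/Δ pools 1 to 3 and 1412.4, 1022.1 and 1030.7 in control pools 1 to 3. All Stat3Δ/Δ arrays lay below the controls, with pool 3 the nearest. Its log2 fold change was -0.78 (SE 0.31, limma adjusted p = 0.61), -0.78 among the arrays that share a title number and -0.59 for its other probe set. Wnt7b, a ligand of the lung epithelium that acts on the mesenchyme, read 1457.8, 1239.5 and 1319.9 in Stat3Δ/Δ cells and 2804.7, 2186.1 and 1416.0 in control cells. Control pool 3 lay within the range of the Stat3Δ/Δ pools while the other two controls stood well above it. Wnt7b gave -0.61 (SE 0.32, limma adjusted p = 0.709), -0.05 between arrays of the same title number and -0.06 for its other probe set.

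Wnt3 was the 1 ligand whose Stat3Δ/Δ arrays all lay above the controls. Its signals were 46.3, 26.3 and 57.7 against 11.9, 3.0 and 13.2, all of them under the added 69.9, so its log2 fold change of 0.47 (SE 0.24, limma adjusted p = 0.708) stems from values near the bottom of the scale. The other 16 ligand genes overlapped between the groups, with log2 fold changes from -0.59 for Wnt11 to 0.61 for Wnt16. Wnt5a, a ligand that mostly acts without beta-catenin, had 4 probe sets that ran from -0.37 to 0.10, and Wnt2, a ligand of lung mesenchyme, gave -0.04 with an SE of 0.63.

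Of the secreted inhibitors other than Wif1, Dkk2 was past p and fold without the FDR at signals close to the bottom of the scale. It read 12, 10.2 and 16.2 in Stat3Δ/Δ pools 1 to 3 and 101.1, 13.9 and 161.4 in control pools 1 to 3. A pair of control pools had signal above 100 while control pool 2 was as dim as the Stat3Δ/Δ pools. Dkk2 gave -0.90 (SE 0.38, limma adjusted p = 0.624), -1.46 among the arrays that share a title number and from -1.34 (without control pool 2) to -0.63 (without control pool 3) with 1 array left out. Dkk1, Dkk3 and Dkk4 overlapped between the groups, with log2 fold changes from -0.56 for Dkk4 to 0.04 for Dkk3; Dkk3 read 248.0, 286.3 and 341.0 against 226.6, 235.9 and 287.2. By its probe set of highest mean, none of the 4 Sfrp genes had p at most 0.05 or separated the groups. Another probe set of Sfrp1 lay lower without overlap after normalization, at -0.60 (SE 0.27). Sfrp4, a secreted decoy that resembles the ligand-binding part of Frizzled, read 786.0, 641.2 and 864.6 against 751.6, 725.8 and 600.7, a log2 fold change of 0.04 (SE 0.27). Sfrp5 had the lowest value of the family, -0.69 (SE 0.38, limma adjusted p = 0.726), and Sfrp1, with 5 probe sets from -0.60 to 0.09, and Sfrp2 the others.

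All 4 R-spondin genes had a log2 fold change below 0, from -0.64 to -0.22, and all overlapped between the groups. Over all genes 59.3% lay below 0. Rspo2, Rspo3 and Rspo4 were dim, with a mean signal at or below that of the median probe set, and had SEs of 0.27 to 0.54. Rspo1, which potentiates WNT signals through LGR receptors, read 197.6, 323.5 and 324.5 in Stat3Δ/Δ pools 1 to 3 and 658.9, 413.0 and 269.3 in control pools 1 to 3. Control pool 3 lay below a pair of Stat3Δ/Δ pools. Rspo1 gave -0.64 (SE 0.39, limma adjusted p = 0.753), and -0.09 among the arrays that share a title number. The co-receptor Lrp5 read 499.4, 194.8 and 395.9 against 375.4, 352.1 and 690.4, with overlapping groups and a log2 fold change of -0.46 (SE 0.34, limma adjusted p = 0.783). Lrp5 moved with single arrays, to -0.16 when Stat3Δ/Δ pool 2 was left out and to -0.27 when control pool 3 was, and it was -0.96 between arrays of the same title number. Its partner Lrp6 read 3252.9, 3199.8 and 1786.8 against 4573.4, 2907.6 and 2935.8, which overlapped as well. Lrp6 gave -0.34 (SE 0.32, limma adjusted p = 0.834), its other probe set gave 0.28, and between arrays of the same title number it turned to 0.13.

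Axin2 read 1280.1, 835.0 and 803.9 in Stat3Δ/Δ pools 1 to 3 and 1273.2, 1282.5 and 2006.4 in control pools 1 to 3. Stat3Δ/Δ pool 1 lay between the lower controls in the deposited signals, while after normalization the groups did not overlap. Its log2 fold change was -0.66 (SE 0.29, unadjusted p = 0.0515, limma adjusted p = 0.647), and -0.94 among the arrays that share a title number, where control pool 3 was the highest. Its second probe set was dimmer and went the other way, at 368.4, 124.9 and 168.7 in Stat3Δ/Δ cells and 24, 31 and 115 in control cells, which gave 1.11 (SE 0.37, limma adjusted p = 0.517 among probe sets), and the mean of both was 0.22. Lef1, a transcription factor at the end of the pathway that lymphocytes express too, read 1068.0, 1244.3 and 1157.5 against 427.7, 1168.9 and 1293.6. Control pool 1 alone was low, and the rest were alike. Lef1 gave 0.30 (SE 0.36, limma adjusted p = 0.863), and -0.08 without control pool 1. Its second probe set, with control pool 1 at 22.6 and the other arrays at 338.1 to 548.0, gave 1.07 (SE 0.56). Control pool 1 also had the lowest summed signal of the T and NK cell markers, 4355 against 9035 to 36491 on the other arrays. Control pool 2 had the highest sum, 36491, while its Lef1 signals of 1168.9 and 358.4 lay within the range of the Stat3Δ/Δ pools or below it. The part of such cells in the values of Lef1 was not tested.

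After normalization, 8 genes of the set had all their Stat3Δ/Δ values below all their control values, as did 10.2% of all genes, and 3 had them all above, where 4.23% did. On the deposited signals these counts were 6 and 3, against 9.15% and 5.08% of all genes. The 8 were Wif1, Fzd3, Fzd4, Fzd7, Fzd8, Wnt4, Axin2 and Dkk2, and the last pair overlapped in the deposited signals. Over the 47 genes 33 had a log2 fold change below 0, with a median of -0.22. The median difference from the mean of the controls was -0.24, -0.18 and -0.27 in Stat3Δ/Δ pools 1 to 3, so no pool stood apart from the others, and for all genes it was -0.13, -0.11 and -0.03.

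The share below 0 differed with the brightness of the probe set. Of the 24 whose probe set had a mean signal above 333.9, the mean signal of the median probe set, 20 were below 0, with a median of -0.48, while 60.2% of all genes of that kind were below 0, with a median of -0.088. Of the other 23, 13 were below 0 (56.5%), with a median of -0.04, against 57.7% of all genes of that kind, and Dkk2 alone among them (4.35%) was lower past p and fold, against 5.83%. The same genes had 42 further probe sets, 27 of them below 0 (64.3%), with a median of -0.12; over all genes 46.3% of such probe sets were below 0. Over all 89 probe sets of the set limma called 0 higher and 0 lower (0.00222% and 0.0% of all probe sets), and 3 were higher and 8 lower past p and fold without the FDR, against 4.14% and 4.22% of all probe sets. Of 28 genes with several probe sets, 15 had the same sign in all of them and 13 did not.

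**Figure D3:**
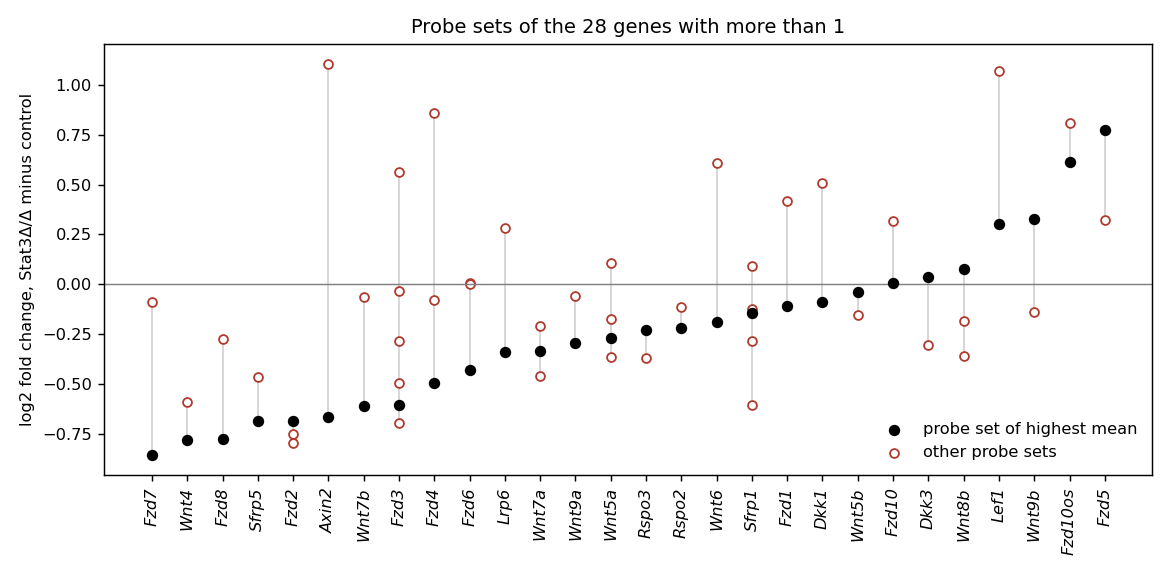
Log2 fold change (y axis, Stat3Δ/Δ minus control) of every probe set of the 28 genes with more than 1, ordered by the probe set of highest mean (black), with the other probe sets open and a grey line over their range. The 3 probe sets of Fzd2 lie together between -0.79 and -0.68, whereas those of Axin2 lie on opposite sides of 0 at -0.66 and 1.11.

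The other genes of the pathway, from secretion to the nucleus, were counted in the same way. Of 73 listed, 71 were measured, 48 were below 0, the median was -0.16 and 0 were called by limma. Before adjustment, p was 0.05 or lower for 6 of them. Without the FDR 4 were lower and 2 higher, against the shares of 5.54% and 2.15% of all genes. Sp5, a zinc finger factor that beta-catenin switches on directly, read 744.4, 868.4 and 1023.9 in Stat3Δ/Δ cells and 1656.2, 1853.3 and 2104.2 in control cells. These did not overlap and gave -1.09 (SE 0.26, limma adjusted p = 0.447). Frat2, which binds GSK3 and so favours beta-catenin, gave -1.13 (SE 0.28, limma adjusted p = 0.472). The ligand-binding decoy Frzb, at signals of 5.5 to 113.8, gave -0.85 and the planar polarity gene Prickle1 -0.61. Myc, a target of the pathway and of many others, gave 0.69 and the glypican Gpc3 0.69. The limma adjusted p of these last 4 genes was between 0.579 and 0.61. Of the list's 6 known targets, 3 lay below 0 and 3 above.

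Marker genes of other lung cells also lay apart between the groups, and their part in the values of the WNT genes was not tested. In bulk samples, fewer cells of a type and less RNA per cell cannot be told apart. Of 6 mesothelial markers 6 were below 0, with a median of -1.22, and their summed signal was 3715 to 6493 on Stat3Δ/Δ arrays and 11244 to 14157 on control arrays. Of 15 fibroblast markers 12 were below 0, with a median of -0.70 and sums of 10733 to 20371 and 22610 to 45503; 4 of them had a mean signal at or below that of the median probe set. The fibroblast median was 0.078 among the arrays that share a title number, where the mesothelial median was -1.19, the ciliated median -0.49, that of macrophages 0.58 and that of neutrophils 0.73. Of 9 ciliated cell markers 7 were below 0, with a median of -0.95 and sums of 23635 to 34760 and 25545 to 60295. Alveolar macrophage markers lay the other way, 9 of 9 measured (10 listed) above 0 with a median of 0.54 and sums of 116869 to 159204 and 84839 to 103342, and so did 4 of 4 neutrophil markers (5 listed) with a median of 1.30 and sums of 20788 to 27939 and 4562 to 13175. The 9 measured of 10 markers of type II cells had a median of -0.04, none of them was at or below the median probe set's signal, and their sums overlapped, at 677573 to 908400 and 820474 to 906629. Those of type I cells had 0.14, of endothelium -0.29, of airway secretory cells -0.22 and of B cells 0.24. The T and NK cell median of -0.20 turned with 1 library, from -0.95 without control pool 1 to 0.51 without control pool 2; the control sums were 4355, 36491 and 12410.

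**Figure D4:**
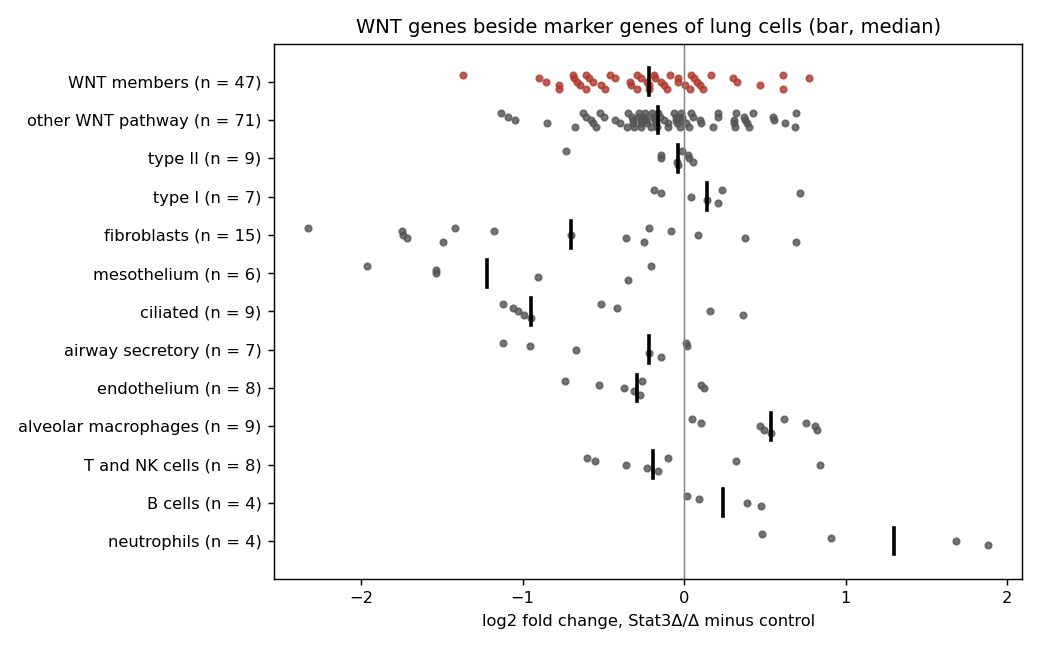
Log2 fold change (x axis, Stat3Δ/Δ minus control) of the 47 WNT genes (red), the 71 other genes of the pathway and the markers of 11 lung cell types (grey), a point per gene and a bar for the median. Mesothelial, ciliated and fibroblast markers have medians of -1.22, -0.95 and -0.70, those of macrophages and neutrophils 0.54 and 1.30, and those of type II cells -0.04.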

How the data were processed

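Per the study's methods, the authors scanned MOE430 arrays and computed linear signal intensities with Affymetrix Microarray Suite (MAS 5.0); the deposited intensities have a common trimmed mean of 1500 on each array. The paper's RMA values were not used here. Control probe sets (64 of 45101) were left out. Of the others, 34945 name 1 gene by GEO's platform annotation, 932 several and 9160 none, and 34741 matched RefSeq by gene identifier without a change of symbol. Signals plus 69.9, the 20th percentile over all arrays, were put on the log2 scale and quantile normalized, and a group term was fitted with limma 3.58.1 (R 4.3.3) with moderated variances. A gene's result is that of its probe set with the highest mean, adjusted by the Benjamini-Hochberg method over 18193 genes; values of further probe sets were adjusted over 45037. Groups were taken from the sample titles. The labels name the pools as separate samples and no more, so p-values measure the spread between them, and their number (3 against 3) limits the precision. Named with every array were the 5 single genes, family members with an unadjusted p of at most 0.05 or groups that did not overlap, and the brightest gene of each family; other pathway genes were named where both conditions held. Wnt2, Wnt5a and Sfrp5 were added with their values in view. The members, the lists and these rules were chosen with earlier results of these data known. The main fit did not pair pools by their number. Deviations of same-numbered pools from their group means correlated at -0.084, -0.0088 and -0.24. Those of pools with the same title number correlated at 0.13 and 0.14, and those of the other pairs at -0.14 to 0.19. With 3 pools in each group, such correlations cannot decide whether the pools are paired. Alternatives varied the pseudocount, normalization, low-signal filter, test, variance model, array weights, choice of probe set, blocks and arrays included. The fit was tested on simulated data.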

Additional observations from a re-analysis of the deposited data

How the results depend on the processing

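None of the 47 genes was called under any alternative, 0 higher and 0 lower in each; the cause of the shifts below was not tested. Member counts past p and fold without the FDR were 1 higher and 6 lower, and became 2 higher with no normalization (2.77% of all genes) and 0 higher with arrays centred on their medians (1.57%). Of 18 alternatives that allow this count, Wif1 passed in 18, Fzd7 in 17, Fzd8 in 14, Wnt4 in 10, Fzd2 in 9, Fzd5 in 9 and Dkk2 in 8. Among these alternatives the filter on low signal leaves Dkk2 out, so Dkk2 was not tested there. Fzd5 missed with no pseudocount, when centred, with mean probe sets, with either fixed block and without Stat3Δ/Δ pools 1 or 2 or control pools 1 or 2. The member median of -0.22 was -0.11 with the median signal as pseudocount, -0.32 with none, -0.12 with no normalization and -0.26 centred. It was -0.54 with the filter on low signal, which leaves 24 members, 21 of them below 0. With that filter 1 member was higher without overlap, against 4.36% of all genes. With the mean of a gene's probe sets the member median was -0.16, and 5 members were lower without overlap, against 9.09% of all genes. A block for the title number, or the arrays within it, gave a member median of -0.15. Within that number, with fewer arrays, 14 members were higher and 22 lower without overlap, against 31.5% and 40.2% of all genes. The median of the other pathway genes, -0.16, was -0.062 with mean probe sets. It was -0.10 with the larger pseudocount, where 1 was higher and 2 lower past p and fold, against 1.23% and 3.08% of all genes. Centred, it was -0.27, with 0 higher and 7 lower, against 1.57% and 6.81%. With array weights it was -0.10, with 3 higher and 7 lower, against 3.2% and 7.86%. A block for the title number, or the arrays within it, gave -0.12, and 2 were lower with the block, against 3.3% of all genes.

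Of the 19 genes named with every array, direction turned in these: Sfrp4 to -0.016 (centred) and -0.079 (array weights), Axin2 to 0.22, Dkk3 to -0.13 and Fzd4 to 0.10 (mean of probe sets), Dkk3 to -0.11, Lef1 to -0.15 and Lrp6 to 0.13 (a block for the title number or within it). With 1 array left out, Sfrp4 ran from -0.11 (without control pool 3; -0.076 without Stat3Δ/Δ pool 3) to 0.16, Dkk3 from -0.090 (without Stat3Δ/Δ pool 3) to 0.18 and Lef1 from -0.079 (without control pool 1) to 0.52. With 1 array left out, 0 to 2 members were higher and 3 to 6 lower past p and fold (3 without control pool 1). Over all genes the shares past p and fold were 1.66% to 2.69% higher and 3.64% to 7.34% lower. Members without overlap were 3 to 4 higher and 10 to 12 lower, since fewer arrays have to stand apart. Over all genes the shares without overlap were 7.27% to 10.1% higher and 13.9% to 22.45% lower. The member median ran from -0.31 to -0.19, 31 to 34 members lay below 0, and the other pathway genes had a median of -0.16 to -0.078 with 0 to 2 higher and 2 to 4 lower.

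With the pool number as a replicate block, 0 members were higher and 4 lower past p and fold, against 1.7% and 4.3% of all genes. Of the other pathway genes 0 were higher, and Wif1 had a limma adjusted p of 0.824. In this balanced design the block leaves every log2 fold change as it is, -1.37 for Wif1. The adjusted p of Wif1 over all alternatives ran from 0.235 to 0.873.

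Signal over background limits the dim genes: all arrays of Wnt3 and all but 2 control arrays of Dkk2 read under the added 69.9, and with no pseudocount their log2 fold changes were 2.26 and -2.42, and probe sets of 13 genes disagreed in sign. Array and pool cannot be told apart, with 1 array for each pool. Markers of cell types other than type II cells had signal in the isolates, and genes of the set that such cells express could not be assigned to a cell type.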
